A study of Mus musculus with 8 samples.

Results

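Pericytes and smooth muscle cells, together called mural cells, wrap the endothelial tube of blood vessels. Smooth muscle surrounds arteries and arterioles and contracts through actin and myosin filaments, whereas pericytes lie along capillaries within the basement membrane. Both kinds of cell depend on Notch signalling and on platelet-derived growth factor from the endothelium, and in bone marrow mural cells accompany the vessels that invade the developing bone. Here the transcripts of 9 genes widely used to mark these cells were followed over 4 sorted populations of bone marrow stroma from newborn mice. The genes were chosen by name, as *Acta2*, *Myh11*, *Tagln*, *Cnn1*, *Rgs5*, *Kcnj8*, *Abcc9*, *Mcam* and *Cspg4*. Each of the 9 was found in the table of 15880 genes, under 1 identifier.

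The animals were heterozygous *Nes-Gfp* pups on a C57BL/6 background, taken on postnatal day 1, in which GFP is under nestin regulatory elements. Pooled bones were crushed and digested with collagenase, and cells lacking the leukocyte antigen CD45, the endothelial antigen CD31 and the erythroid antigen Ter119 were separated by GFP and by surface Pdgfrα, the alpha receptor for platelet-derived growth factor. The resulting populations were GFP+ Pdgfrα-, GFP+ Pdgfrα+, GFP- Pdgfrα+ and GFP- Pdgfrα- cells, with 2 libraries of each. A library held RNA of 15000 to 80000 cells from a pool of 3 pups, so that its values are averages over animals as well as cells. Libraries with the same replicate number were read as coming from the same pool of littermates. Because GFP reports the transgene, a GFP+ gate collects every kind of cell in which those elements are active. Libraries held between 3221217 and 5302762 reads on genes. Values are given as the authors normalized them, which is the number of reads plus 0.5, per 1e6 of the effective library size. A gene with 3 reads, taken as the limit of detection in a library, had a value between 0.825 and 1.04.

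The sorted populations differed in what else they contained. *Pdgfra*, which encodes the antigen used in the sort, was at 733 and 754 in GFP+ Pdgfrα+ and 839 and 794 in GFP- Pdgfrα+ libraries, against 18.1 and 10.4 in GFP+ Pdgfrα- and 3.30 and 4.36 in GFP- Pdgfrα- libraries. *Nes* itself, named here outside the rule for named genes because its elements drive GFP, was highest in GFP+ Pdgfrα- libraries, at 149 and 176, and was at 57.6 and 72.01 in GFP+ Pdgfrα+, 27.4 and 47.1 in GFP- Pdgfrα+ and 3.59 and 9.08 in GFP- Pdgfrα- libraries. The GFP- Pdgfrα- libraries stood apart from the other 6 in their red blood cell transcripts. Their value of *Hbb-b1*, a beta globin gene, was 4362 and 7619, while no other library exceeded 51.4. The mitochondrial ribosomal RNA *mt-Rnr2* took 27.2% and 29.1% of their reads, against 17.6% and 15.6% in GFP+ Pdgfrα- libraries and 9.52% to 10.8% in the 4 Pdgfrα+ libraries. This share therefore differs between the populations compared below, and its part in their differences was not tested. In RNA from sorted pools, fewer cells of a type and less RNA per cell cannot be told apart.

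Of the 9 genes, 8 had their highest mean in GFP+ Pdgfrα- cells, as did 20.98% of all genes, and the exception was *Cspg4*. Against GFP- Pdgfrα- cells, all 9 were higher in GFP+ Pdgfrα- cells at an adjusted p of at most 0.05 in limma, where 53.7% of all genes differed and 30.1% were higher. Against GFP+ Pdgfrα+ cells, which share the GFP gate, 8 were higher and 0 lower, with 24.2% of all genes called and 11.1% higher. Against GFP- Pdgfrα+ cells 8 were higher and 1, *Cspg4*, was lower. There 27.9% of all genes were called, 13.5% of them higher in GFP+ Pdgfrα- cells and 14.3% lower, as shares of the 15880 genes tested. The median log2 fold change of the 9 was 4.12, 2.49 and 2.79 in these comparisons, and that of all genes was 0.15, 0.02 and 0.03. All fold changes called log2 are on the scale of log2(value + 1), which understates the change of weakly detected genes.

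**Figure D1:**
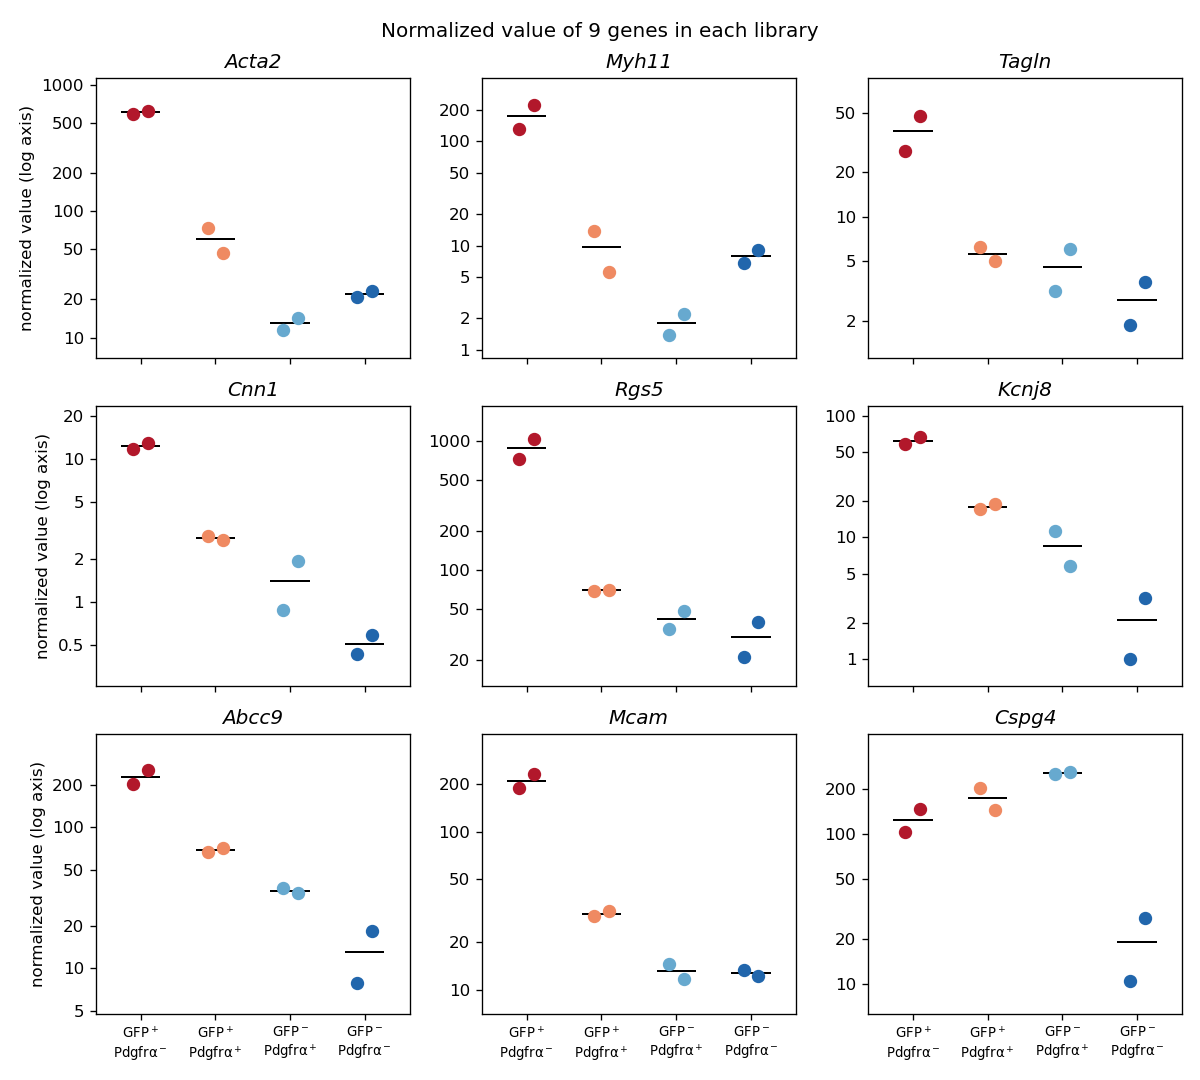
Normalized value of each of the 9 genes (y axis, reads plus 0.5 per 1e6 of effective library size, log axis) in the 4 sorted populations (x axis), with 1 point per library and a bar at the mean of the 2. In 8 panels both GFP+ Pdgfrα- points lie above all other points, as for 10.99% of all genes, and for *Cspg4* the GFP- Pdgfrα+ points are highest, at 255 and 259.7.

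The contractile apparatus is represented by 4 of the genes. *Acta2* encodes smooth muscle alpha actin, the actin isoform of vascular smooth muscle. Its value was 584 and 623 in GFP+ Pdgfrα-, 73.3 and 46.4 in GFP+ Pdgfrα+, 11.5 and 14.4 in GFP- Pdgfrα+ and 21.1 and 23.2 in GFP- Pdgfrα- libraries. No ranges overlapped, so that the 4 populations formed a complete order, with GFP- Pdgfrα+ cells at the bottom. The mean in GFP+ Pdgfrα- cells, 603 ± 27.8 (SD, n = 2), was 10.1-fold that of GFP+ Pdgfrα+ cells (log2 fold change 3.35, 95% confidence interval 2.88 to 3.81, limma adjusted p = 8.5e-07). GFP+ Pdgfrα+ cells in turn exceeded GFP- Pdgfrα- cells 2.70-fold (adjusted p = 0.000158) and GFP- Pdgfrα+ cells 4.63-fold (adjusted p = 0.000196). The last step, from GFP- Pdgfrα- to GFP- Pdgfrα+ cells, was 1.71-fold with an adjusted p of 0.0101 in limma. That call was lost with voom on recovered reads (adjusted p = 0.057), without the normalization factor (adjusted p = 0.0934) and without replicate 1 of GFP- Pdgfrα+ cells (adjusted p = 0.0864), within a range of 0.000241 to 0.0934 over the alternatives.

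*Myh11* encodes the smooth muscle myosin heavy chain, often taken as the strictest marker of differentiated smooth muscle. Libraries of GFP+ Pdgfrα- cells held 131 and 224, those of GFP+ Pdgfrα+ cells 13.9 and 5.61, those of GFP- Pdgfrα- cells 6.75 and 9.08 and those of GFP- Pdgfrα+ cells 1.39 and 2.23. The GFP+ Pdgfrα- libraries were above all others, and the ranges of GFP+ Pdgfrα+ and GFP- Pdgfrα- cells overlapped. Between GFP+ Pdgfrα- cells and GFP- Pdgfrα+ cells *Myh11* differed 98.2-fold (log2 fold change 5.96, SE 0.41, limma adjusted p = 7e-07). In GFP+ Pdgfrα+ cells against GFP- Pdgfrα- cells, the log2 fold change was 0.17 (adjusted p = 0.739), and its sign turned when libraries were centred on their medians (−0.31) and without replicate 1 of GFP+ Pdgfrα+ cells (−0.42) or of GFP- Pdgfrα- cells (−0.02). The value of GFP+ Pdgfrα+ cells was 5.41-fold that of GFP- Pdgfrα+ cells (log2 fold change 1.84, and 1.25 and 2.43 without replicate 1 or 2 of GFP+ Pdgfrα+ cells), with an adjusted p of 0.0214 in limma that ranged over 0.0118 to 0.191 in the alternatives. This call rested on few reads, 50 and 19 in GFP+ Pdgfrα+ and 5 and 7 in GFP- Pdgfrα+ libraries, and was lost in 9 of the alternatives, among them voom (adjusted p = 0.191). It was lost without either GFP+ Pdgfrα- library (adjusted p = 0.0532 and 0.0555), either GFP- Pdgfrα+ library (0.168 and 0.0902) or replicate 1 of GFP+ Pdgfrα+ cells (0.16).

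*Tagln* and *Cnn1* encode transgelin and calponin 1, actin-binding proteins of smooth muscle. *Tagln* was at 27.6 and 47.2 in GFP+ Pdgfrα-, 6.21 and 5.03 in GFP+ Pdgfrα+, 3.15 and 6.09 in GFP- Pdgfrα+ and 1.87 and 3.66 in GFP- Pdgfrα- libraries. Only GFP+ Pdgfrα- cells stood apart in *Tagln*, at 6.65-fold the mean of GFP+ Pdgfrα+ cells (log2 fold change 2.49, limma adjusted p = 0.00106). Neighbours in the order of the other populations did not differ by the test, with adjusted p-values of 0.784 between GFP+ Pdgfrα+ cells and GFP- Pdgfrα+ cells and 0.262 between GFP- Pdgfrα+ cells and GFP- Pdgfrα- cells. The first of these differences, 0.28, changed sign without replicate 1 of GFP- Pdgfrα+ cells (−0.10). *Cnn1* had the fewest reads of the 9, with values of 11.8 and 12.99 in GFP+ Pdgfrα-, 2.90 and 2.73 in GFP+ Pdgfrα+, 0.882 and 1.93 in GFP- Pdgfrα+ and 0.431 and 0.590 in GFP- Pdgfrα- libraries. With 1 and 2 reads, both GFP- Pdgfrα- libraries lay under the limit of 3 reads, and no fold is given against them. The mean of GFP+ Pdgfrα- cells against GFP+ Pdgfrα+ cells was 4.40-fold (log2 fold change 1.81, limma adjusted p = 0.00522). Per kilobase of merged exons, the mean level in GFP+ Pdgfrα- cells was 339 for *Acta2*, 26.8 for *Myh11*, 23.6 for *Tagln* and 5.23 for *Cnn1*. On this length-corrected scale *Acta2* was therefore the most abundant of the contractile genes in GFP+ Pdgfrα- cells.

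*Rgs5* encodes a regulator of G protein signalling that shortens the response of vascular cells to contractile and other ligands, and it is a classical pericyte marker. Its values, 731 and 1035 in GFP+ Pdgfrα-, 69.5 and 70.6 in GFP+ Pdgfrα+, 35.2 and 48.3 in GFP- Pdgfrα+ and 21.1 and 39.5 in GFP- Pdgfrα- libraries, were above those of every other population in both GFP+ Pdgfrα- libraries. The mean in GFP+ Pdgfrα- cells was 883 ± 215 (SD, n = 2), 12.6-fold that of GFP+ Pdgfrα+ cells (log2 fold change 3.62, limma adjusted p = 2.1e-06). Among the other populations the ranges of GFP- Pdgfrα+ and GFP- Pdgfrα- cells overlapped (adjusted p = 0.125), and GFP+ Pdgfrα+ cells, although above both, were not called against GFP- Pdgfrα+ cells (difference of 0.75 on the log2 scale, adjusted p = 0.139). The first of these differences, −0.50 for GFP- Pdgfrα- minus GFP- Pdgfrα+ cells, was −0.06 without replicate 1 of GFP- Pdgfrα- cells and −0.93 without replicate 2, where it was called (adjusted p = 0.00466), as it was with no normalization factor (−0.81, adjusted p = 0.0134). The second passed without either GFP- Pdgfrα- library (adjusted p = 0.0336 and 0.0345). With the replicate number as a block, both of these differences passed, at adjusted p-values of 0.0359 and 0.0354. Over all alternatives their adjusted p-values ranged over 0.00466 to 0.892 and 0.0336 to 0.535.

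*Kcnj8* and *Abcc9* encode the pore Kir6.1 and the sulfonylurea receptor SUR2, the subunits of the ATP-sensitive potassium channel of vascular mural cells. *Kcnj8* was at 58.2 and 66.2 in GFP+ Pdgfrα-, 16.99 and 18.8 in GFP+ Pdgfrα+, 11.2 and 5.79 in GFP- Pdgfrα+ and 1.01 and 3.18 in GFP- Pdgfrα- libraries. The 4 populations did not overlap, and both GFP- Pdgfrα- libraries were lowest. *Abcc9* took the same order, at 202 and 253 in GFP+ Pdgfrα-, 66.98 and 70.6 in GFP+ Pdgfrα+, 36.7 and 34.01 in GFP- Pdgfrα+ and 7.90 and 18.3 in GFP- Pdgfrα- libraries. From GFP+ Pdgfrα- to GFP+ Pdgfrα+ cells the fold was 3.47 for *Kcnj8* (log2 fold change 1.74, limma adjusted p = 0.00661) and 3.31 for *Abcc9* (log2 fold change 1.70, adjusted p = 0.00109). Without replicate 1 or replicate 2 of GFP+ Pdgfrα- cells the *Kcnj8* call was lost (adjusted p = 0.055 and 0.0745), in a range of 0.000148 to 0.0745. Both subunits were also higher in GFP- Pdgfrα+ cells than GFP- Pdgfrα- cells, *Kcnj8* 4.06-fold (adjusted p = 0.0029, on 3 and 13 reads in GFP- Pdgfrα- libraries, the first at the limit of detection) and *Abcc9* 2.70-fold (adjusted p = 0.000773). Without replicate 1 or 2 of GFP- Pdgfrα- cells, GFP- Pdgfrα- minus GFP- Pdgfrα+ cells gave a log2 fold change of −1.12 and −2.18 for *Kcnj8*, in place of −1.65, and −0.91 and −2.03 for *Abcc9*, in place of −1.47. The step between GFP+ Pdgfrα+ cells and GFP- Pdgfrα+ cells was not called for either (adjusted p = 0.161 and 0.0868). For *Abcc9* it passed in several alternatives, including voom (adjusted p = 0.0277) and edgeR on recovered reads (adjusted p = 0.0362), and without either GFP- Pdgfrα- library (adjusted p = 0.004 and 0.00475), with a range of 0.004 to 0.347. Per kilobase of merged exons the means of the pore and receptor were 28.4 and 30.2 in GFP+ Pdgfrα- cells and 8.18 and 9.12 in GFP+ Pdgfrα+ cells, so that on this scale the subunits were at like levels in the GFP+ populations.

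The remaining genes encode surface proteins. *Mcam* encodes CD146, an adhesion molecule of mural and endothelial cells that is used to sort perivascular stroma. Libraries held 191 and 231 in GFP+ Pdgfrα-, 29.1 and 31.5 in GFP+ Pdgfrα+, 14.5 and 11.7 in GFP- Pdgfrα+ and 13.4 and 12.1 in GFP- Pdgfrα- cells. The GFP+ Pdgfrα- mean was 6.97-fold that of GFP+ Pdgfrα+ cells (log2 fold change 2.76, limma adjusted p = 2.22e-06), and GFP+ Pdgfrα+ cells exceeded GFP- Pdgfrα+ cells 2.31-fold (adjusted p = 0.00597). The latter call was lost without replicate 2 of GFP- Pdgfrα+ cells (adjusted p = 0.076), in a range of 0.00252 to 0.076. The GFP- populations overlapped, with a log2 fold change of −0.03 between them (adjusted p = 0.906) that turned positive on centring (0.42). No difference of *Mcam* by Pdgfrα was detected among GFP- cells, in contrast to GFP+ cells, and the interaction of *Mcam* was −2.79 (adjusted p = 9.71e-06).

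*Cspg4* encodes the proteoglycan NG2, a marker of pericytes that is also found on other mesenchymal and glial cells. It was the only one of the 9 that was not highest in GFP+ Pdgfrα- cells. The order was GFP- Pdgfrα+ cells at 255 and 259.7, GFP+ Pdgfrα+ cells at 205 and 146, GFP+ Pdgfrα- cells at 104 and 147 and GFP- Pdgfrα- cells at 10.5 and 27.7. Both GFP- Pdgfrα- libraries lay below all others. Neither the step from GFP- Pdgfrα+ to GFP+ Pdgfrα+ cells (log2 fold change of GFP+ Pdgfrα+ minus GFP- Pdgfrα+ cells −0.57, limma adjusted p = 0.411) nor that from GFP+ Pdgfrα+ to GFP+ Pdgfrα- cells (−0.48, adjusted p = 0.341) was called, and the ranges of the GFP+ populations overlapped. GFP+ Pdgfrα- cells were lower than GFP- Pdgfrα+ cells (log2 fold change −1.05, 95% confidence interval −1.78 to −0.32, adjusted p = 0.0349), but this call was lost in 6 alternatives, with adjusted p-values over a range of 0.000823 to 0.263. These include leaving out either GFP+ Pdgfrα- library (adjusted p = 0.263 and 0.0738) or either GFP- Pdgfrα+ library (0.142 and 0.155). The fall to GFP- Pdgfrα- cells was 13.5-fold from GFP- Pdgfrα+ cells (adjusted p = 9.19e-07) and 6.56-fold from GFP+ Pdgfrα- cells (adjusted p = 2.08e-05). Without replicate 1 or 2 of GFP- Pdgfrα- cells, the log2 fold change was −3.17 and −4.49 for GFP- Pdgfrα- minus GFP- Pdgfrα+ cells, in place of −3.83, and 2.12 and 3.44 for GFP+ Pdgfrα- minus GFP- Pdgfrα- cells, in place of 2.78.

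Within Pdgfrα+ cells, fewer of the 9 genes were called by GFP. Of the 9 genes, 3 were higher in GFP+ Pdgfrα+ cells than GFP- Pdgfrα+ cells (*Acta2*, *Myh11* and *Mcam*) and 0 were lower, where 5.35% of all genes were called and 3.22% were higher. The count ranged from 1 to 5 when single libraries were left out, being 1 without replicate 2 of GFP- Pdgfrα+ cells and 5 without either replicate of GFP- Pdgfrα- cells. The median log2 fold change of the 9 was 0.94, against 0.00 for all genes. Compared with GFP- Pdgfrα- cells, GFP+ Pdgfrα+ cells were higher in 7 of the 9 and lower in 0, with 59.3% of all genes called and 32.9% higher. The exceptions were *Myh11* and *Tagln* (log2 fold change 0.85, limma adjusted p = 0.0989). That value of *Tagln* was 0.50 without replicate 1 of GFP- Pdgfrα- cells, and it was called with no normalization factor (1.08, adjusted p = 0.0377, in a range of 0.0377 to 0.461), which makes 8 of the 9. The call of *Cnn1* (adjusted p = 0.0106) was lost on centring (adjusted p = 0.079) and without replicate 1 of GFP- Pdgfrα- cells (adjusted p = 0.0576), in a range of 0.00318 to 0.079. The GFP- populations differed in both directions. *Acta2* and *Myh11* were higher in GFP- Pdgfrα- cells than GFP- Pdgfrα+ cells, and *Kcnj8*, *Abcc9* and *Cspg4* were lower, so that 2 rose and 3 fell where 59.7% of all genes were called, 26.8% higher and 32.9% lower. Voom called 3 of the 9 here, without *Acta2* (adjusted p = 0.057) and *Myh11* (adjusted p = 0.0658), in ranges of 0.000241 to 0.0934 and 0.000395 to 0.0658. A share of 5 in 9 is near the background, and nothing is read from that count.

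**Figure D2:**
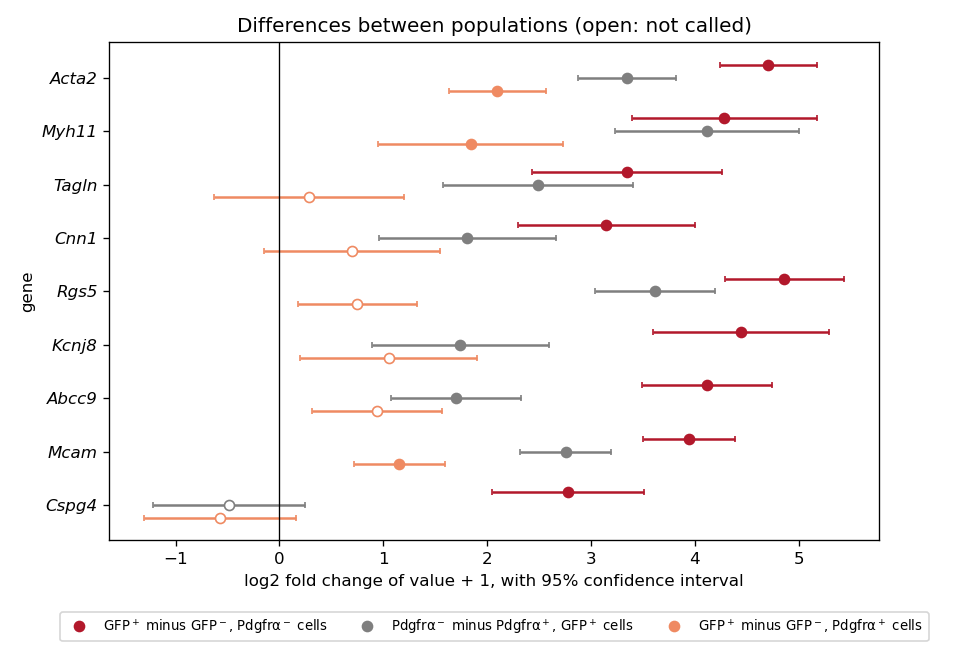
Log2 fold change of value + 1 (x axis) for each of the 9 genes (y axis) between GFP+ and GFP- cells within Pdgfrα- cells (red), between Pdgfrα- and Pdgfrα+ cells within GFP+ cells (grey) and between GFP+ and GFP- cells within Pdgfrα+ cells (orange). Bars are 95% confidence intervals from limma and filled points were called; all 9 red points are filled, against 8 grey and 3 orange, where 53.7%, 24.2% and 5.35% of all genes were called.

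The effect of GFP was smaller in Pdgfrα+ than in Pdgfrα- cells for all 9 genes. The test of that difference, the interaction of GFP with Pdgfrα, was called as negative for 9 of 9, where 44.3% of all genes were called and 25.2% were negative. Markers of other cell types, described below, moved with it, as 8 of 12 skeletal muscle, 7 of 10 Schwann cell and 4 of 6 fibroblast genes were called as negative. The same held for 13 of 17 contractile, 16 of 20 pericyte and 13 of 16 regulator genes of the further lists below. Of the osteoblast genes 5 of 7 and of the blood genes 5 of 9 were called as positive, beside 3032 of all 15880 genes. For *Rgs5* the effect was 4.86 in Pdgfrα- and 0.75 in Pdgfrα+ cells, a difference of −4.11 (SE 0.37, limma adjusted p = 3.64e-06). For *Cnn1*, with 1 and 2 reads in GFP- Pdgfrα- libraries, the sign and the call held in all tested alternatives, but the size ranged over −3.71 to −1.37 and is not read as measured. That of *Myh11* (−2.45, adjusted p = 0.00445) was not called by voom (adjusted p = 0.142) or edgeR (adjusted p = 0.0751), within 0.000258 to 0.142 over the alternatives. Without replicate 1 or 2 of GFP+ Pdgfrα+ cells it was −3.03 and −1.86, and without replicate 1 or 2 of GFP- Pdgfrα- cells that of *Cspg4* was −2.69 and −4.01 in place of −3.35. Every one of these differences contains the GFP- Pdgfrα- libraries with their red blood cell transcripts, whose part in the result was not tested.

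A further 18 contractile and 22 pericyte genes were examined beside the 9, without a test of the lists. Of the contractile genes 17 were in the table (*Kcnmb1* was not), and of the pericyte genes 20 (*Higd1b* and *Atp13a5* were not). In GFP+ Pdgfrα- cells against GFP+ Pdgfrα+ cells, 10 contractile genes were higher and 1 lower, where 24.2% of all genes were called and 11.1% were higher. Their median log2 fold change was 0.80. The number called in either direction was 5 without replicate 2 of GFP+ Pdgfrα- cells and 7 without replicate 1 of GFP+ Pdgfrα+ cells. *Tpm2*, a tropomyosin, was at 175 and 185 in GFP+ Pdgfrα- and 54.8 and 51.03 in GFP+ Pdgfrα+ libraries (log2 fold change 1.74, limma adjusted p = 3.19e-05), and *Csrp1*, a LIM domain protein of smooth muscle, at 151 and 184 against 97.1 and 93.3 (0.80, adjusted p = 0.00194). *Tpm1*, another tropomyosin, was at 409 and 536 in GFP+ Pdgfrα-, 726 and 525 in GFP+ Pdgfrα+ and 256 and 245 in GFP- Pdgfrα+ libraries, and it was higher in GFP+ Pdgfrα+ cells than GFP- Pdgfrα+ cells (1.30, adjusted p = 0.00121). Values of *Cald1*, caldesmon, were 373 and 411 in GFP+ Pdgfrα-, 584 and 549.5 in GFP+ Pdgfrα+, 431 and 424 in GFP- Pdgfrα+ and 15.7 and 24.4 in GFP- Pdgfrα- libraries, and those of *Smtn*, smoothelin, were 63.2 and 78.6, 115 and 106, 96.7 and 103 and 3.88 and 8.37 in the same order. *Mylk*, the myosin light chain kinase, was at 128 and 194 in GFP+ Pdgfrα- and 85.8 and 96.2 in GFP+ Pdgfrα+ libraries. *Cald1* and *Smtn* thus had both of their highest values in GFP+ Pdgfrα+ libraries, unlike the 4 contractile genes above.

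For the pericyte list, in GFP+ Pdgfrα- cells against GFP+ Pdgfrα+ cells, 4 of its genes were higher, 3 were lower and 13 were not called, with a median of 0.28, where 11.1% of all genes were higher and 13.1% lower. *Notch3*, the Notch receptor of mural cells, was at 419.7 and 536 in GFP+ Pdgfrα-, 118 and 125 in GFP+ Pdgfrα+, 51.6 and 48.6 in GFP- Pdgfrα+ and 7.90 and 14.03 in GFP- Pdgfrα- libraries (log2 fold change of GFP+ Pdgfrα- minus GFP+ Pdgfrα+ cells 1.96, limma adjusted p = 6.12e-05). Its target *Heyl*, a transcriptional repressor, was at 295 and 364, 102 and 118, 20.5 and 18.3 and 2.73 and 6.72 in the same order (1.58, adjusted p = 0.00173). *Heyl* was also higher in GFP+ Pdgfrα+ cells than GFP- Pdgfrα+ cells (2.44, adjusted p = 0.000444), as was *S1pr3*, a receptor for sphingosine 1-phosphate (1.28, adjusted p = 0.00311). Both Notch genes therefore had the order of *Kcnj8* and *Abcc9*. *Anpep*, the aminopeptidase CD13, had the reverse order in the first 3 populations, at 18.3 and 18.9 in GFP+ Pdgfrα-, 194 and 234 in GFP+ Pdgfrα+ and 338 and 339.6 in GFP- Pdgfrα+ libraries (GFP+ Pdgfrα- minus GFP+ Pdgfrα+ cells −3.45, adjusted p = 4.1e-07). *Ednra*, the type A endothelin receptor, was also lower in GFP+ Pdgfrα- cells than GFP+ Pdgfrα+ cells, at 45.04 and 58.01 against 119.7 and 111 (−1.16, adjusted p = 0.00185). *Pdgfrb*, the receptor through which endothelium recruits mural cells, was at 110.3 and 159.9 in GFP+ Pdgfrα-, 169 and 161 in GFP+ Pdgfrα+, 126 and 124 in GFP- Pdgfrα+ and 7.04 and 9.08 in GFP- Pdgfrα- libraries, so that both GFP- Pdgfrα- libraries were below all others.

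Of 17 genes of regulators of the mural programme, among them serum response factor with its coactivators and the Notch and TGF-beta pathways, 16 were in the table (*Tcf21* was not). In GFP+ Pdgfrα- cells against GFP+ Pdgfrα+ cells, 6 were higher and 6 lower, with a median of −0.05, against 24.2% of all genes called. *Notch3* and *Heyl* belong to this list as well. *Klf4*, a repressor of the contractile programme, was at 54.5 and 64.4 in GFP+ Pdgfrα-, 154 and 129 in GFP+ Pdgfrα+, 146 and 122 in GFP- Pdgfrα+ and 6.75 and 7.90 in GFP- Pdgfrα- libraries (log2 fold change of GFP+ Pdgfrα- minus GFP+ Pdgfrα+ cells −1.24, limma adjusted p = 0.000431). *Tgfbr2*, a TGF-beta receptor, was at 60.1 and 73.2, 180.2 and 163, 305 and 282 and 16.5 and 14.5 in the same order (−1.36, adjusted p = 6.77e-05). Both were thus lower in GFP+ Pdgfrα- cells than GFP+ Pdgfrα+ cells, the opposite of *Acta2* and *Myh11*, and both GFP- Pdgfrα- libraries were lowest. *Notch2* was at 417 and 472 in GFP+ Pdgfrα- and 387 and 371 in GFP+ Pdgfrα+ libraries. *Mkl2*, a coactivator of serum response factor, was at 85.1 and 99.7 against 124 and 121. Neither gene overlapped between these populations, with *Notch2* higher and *Mkl2* lower in both GFP+ Pdgfrα- libraries.

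GFP+ Pdgfrα- cells were higher than GFP- Pdgfrα- cells in 14 of 17 contractile, 17 of 20 pericyte and 14 of 16 regulator genes, and in 30.1% of all genes. Of the regulator genes 1 was lower, beside 3740 of all 15880 genes. GFP+ Pdgfrα+ cells were higher in 11, 17 and 13, and in 32.9% of all genes. Against GFP- Pdgfrα+ cells, GFP+ Pdgfrα- cells were higher in 11 contractile, 8 pericyte and 6 regulator genes and lower in 0, 4 and 5, where 13.5% of all genes were higher and 14.3% lower. The number of pericyte genes called there in either direction was 7 without replicate 2 of GFP- Pdgfrα+ cells, in a range of 7 to 15. In GFP+ Pdgfrα+ cells against GFP- Pdgfrα+ cells, 1 contractile gene was higher and 1 lower, 5 pericyte genes were higher, and 3 regulator genes were higher and 1 lower, where 5.35% of all genes were called and 3.22% were higher. The number called in either direction ranged over 1 to 4 contractile, 3 to 7 pericyte and 1 to 5 regulator genes in the alternatives, with the lowest numbers without either GFP- Pdgfrα+ library and the highest without either GFP- Pdgfrα- library.

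Paralogs of the 9 genes were followed because isoforms of 1 family can mark different muscles. Of the actins, *Actc1*, the alpha cardiac isoform that is also made by immature skeletal muscle, was at 1046 and 856 in GFP+ Pdgfrα-, 57.03 and 37.8 in GFP+ Pdgfrα+, 6.68 and 7.87 in GFP- Pdgfrα+ and 25.7 and 10.5 in GFP- Pdgfrα- libraries (log2 fold change of GFP+ Pdgfrα- minus GFP+ Pdgfrα+ cells 4.32, limma adjusted p = 2.9e-06). Its mean level in GFP+ Pdgfrα- cells was 588 per kilobase of merged exons, above the 339 of *Acta2*. *Actg2*, the enteric smooth muscle isoform, was at 26.8 and 50.3 in GFP+ Pdgfrα- and 4.56 and 2.16 in GFP+ Pdgfrα+ libraries (3.17, adjusted p = 0.00085), and *Acta1*, the skeletal isoform, at 40.9 and 41.3 against 18.6 and 20.3. *Actb* and *Actg1* are the cytoplasmic isoforms. *Actb* was at 1049 and 1050.5 in GFP+ Pdgfrα- and 1229 and 1008 in GFP+ Pdgfrα+ libraries, with overlapping ranges. *Actg1* was at 308 and 343 against 417 and 393, lower in both GFP+ Pdgfrα- libraries. *Acta2*, *Actc1* and *Actg2* were thus higher in GFP+ Pdgfrα- cells than GFP+ Pdgfrα+ cells by the test, and both libraries of GFP+ Pdgfrα- cells held more *Acta1*. Only 0.404% of the 50-base words of annotated *Acta2* transcripts occur in another actin, and 0 of those of *Actc1* and *Actg2*. The read length is not given in the sources used here.

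The other families held paralogs with different orders. *Tagln2*, the broadly expressed transgelin, was at 322 and 307 in GFP+ Pdgfrα-, 343 and 331 in GFP+ Pdgfrα+, 557 and 452 in GFP- Pdgfrα+ and 236 and 181 in GFP- Pdgfrα- libraries, and *Tagln3* was not in the table. *Cnn2*, a calponin of many cell types, was at 35.8 and 30.2 in GFP+ Pdgfrα- and 128 and 80.9 in GFP+ Pdgfrα+ libraries and was lower in GFP+ Pdgfrα- cells (log2 fold change −1.60, limma adjusted p = 0.00116), while *Cnn3* was at 97.97 and 145 against 75.3 and 82.4. Of the nonmuscle myosins, *Myh10* was lower in GFP+ Pdgfrα- cells than GFP+ Pdgfrα+ cells, at 103 and 113 against 179 and 172 (−0.70, adjusted p = 0.00134), *Myh9* was at 249 and 329 against 259 and 190.2, and *Myh14* at 5.71 and 3.47 against 1.52 and 0.431. *Kcnj11* and *Abcc8*, the channel subunits of pancreas and brain, had no value above 2.19 in any library. Among relatives of *Rgs5*, *Rgs16* was at 62.04 and 68.6 in GFP+ Pdgfrα- and 9.25 and 17.4 in GFP+ Pdgfrα+ libraries (2.27, adjusted p = 0.000404), and *Rgs4*, which is also on the pericyte list, at 30.96 and 47.98 against 12.6 and 16.2. Values in GFP+ Pdgfrα- libraries were 37.03 and 18.1 for *Rgs2*, 26.8 and 26.9 for *Rgs3*, 5.71 and 5.02 for *Rgs8* and 0.364 and 0.129 for *Rgs18*, and *Rgs1* and *Rgs13* were not in the table.

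Markers of other cell types also moved with the GFP+ Pdgfrα- gate. Of 12 skeletal muscle genes, 9 were higher in GFP+ Pdgfrα- cells than GFP+ Pdgfrα+ cells and 0 lower, against 11.1% of all genes higher. Their summed value was 691 and 685 in GFP+ Pdgfrα-, 63.2 and 81.4 in GFP+ Pdgfrα+, 50.4 and 43.1 in GFP- Pdgfrα+ and 38.5 and 31.4 in GFP- Pdgfrα- libraries. The most abundant was *Pax7*, the transcription factor of muscle stem cells, at 296 and 336 in GFP+ Pdgfrα- and 10.4 and 14.5 in GFP+ Pdgfrα+ libraries, followed by *Myog*, myogenin, at 141 and 95.3 against 4.56 and 4.46. *Myod1*, which defines the myogenic lineage, was at 66.6 and 84.8 against 2.62 and 3.31. Of 10 Schwann cell genes, 8 were higher in GFP+ Pdgfrα- cells than GFP+ Pdgfrα+ cells and 1 was lower, beside the same 11.1% of all genes. Summed values of the Schwann cell list were 510.4 and 460.0 in GFP+ Pdgfrα-, 210.2 and 187 in GFP+ Pdgfrα+, 79.4 and 90.6 in GFP- Pdgfrα+ and 29.6 and 44.6 in GFP- Pdgfrα- libraries. *Sox10*, the factor that defines the lineage, was at 83.2 and 85.8 in GFP+ Pdgfrα- and 13.4 and 9.34 in GFP+ Pdgfrα+ libraries, and *Erbb3*, a neuregulin receptor, at 131 and 131 against 20.6 and 22.3. *Ngfr*, the gene of the list with the highest mean over the 8 libraries, had the opposite order, at 33.6 and 23.3 in GFP+ Pdgfrα- and 94.6 and 109 in GFP+ Pdgfrα+ libraries. The GFP+ Pdgfrα- population thus held transcripts that mark muscle and Schwann cell lineages beside those of the 9 genes. Which cells the transcripts of the 9 came from was not tested, nor was the part of muscle and Schwann cell lineages in the values of *Acta2* and the other genes.

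Of the osteoblast, fibroblast and chondrocyte genes, 0 were higher in GFP+ Pdgfrα- cells than GFP+ Pdgfrα+ cells. Blood genes went in part with the 9 genes there, with 2 of 9 higher and 0 lower, beside 11.1% of all genes higher. Their median log2 fold change was 0.86. In GFP+ Pdgfrα- cells against GFP- Pdgfrα- cells, 7 of 7 osteoblast, 4 of 6 fibroblast and 2 of 9 endothelial genes were higher, beside 30.1% of all genes. In that comparison 5 of 6 chondrocyte, 5 of 9 blood and 1 of 9 endothelial genes were lower, beside 3740 of all 15880 genes. For 9 endothelial genes in the table (*Cldn5* was not), the summed value was 74.4 and 129 in GFP+ Pdgfrα-, 60.1 and 95.01 in GFP+ Pdgfrα+, 67.9 and 70.2 in GFP- Pdgfrα+ and 61.9 and 178 in GFP- Pdgfrα- libraries, and 1 was higher in GFP+ Pdgfrα- cells than GFP+ Pdgfrα+ cells, beside 11.1% of all genes. *Vwf* and *Tek*, the most abundant of them, were in GFP+ Pdgfrα- libraries at 20.5 and 16.3 for *Vwf* and 27.3 and 39.5 for *Tek*. *Pecam1*, which encodes the excluded antigen CD31, was at 4.25 and 18.1 in GFP+ Pdgfrα- and 12.8 and 27.9 in GFP- Pdgfrα- libraries. In both populations replicate 2 held more of it than replicate 1. The same direction was seen for 9 of the 9 genes in GFP+ Pdgfrα- cells and 8 of 9 in GFP- Pdgfrα- cells, where 54.3% and 47.3% of all genes were higher in replicate 2. In GFP+ Pdgfrα+ cells replicate 2 also held more *Pecam1*, and 4 of the 9 were higher in replicate 2 there (50.4% of all genes). In GFP- Pdgfrα+ cells *Pecam1* was at 3.91 and 4.01, and 6 of the 9 were higher in replicate 2 (48.8% of all genes). Each direction comes from a single pair of libraries, and a link between *Pecam1* and the 9 genes was not tested. The 7 osteoblast genes were highest in GFP+ Pdgfrα+ cells, with *Spp1* at 6048 and 3915 against 494 and 393 in GFP+ Pdgfrα- libraries, *Ibsp* at 2466 and 1774 against 152 and 135 and *Runx2*, the factor of the lineage, at 499 and 275 against 30.96 and 29.2. The 6 fibroblast genes were at a summed 1401 and 1222 in GFP+ Pdgfrα- and 10374 and 10106 in GFP+ Pdgfrα+ libraries, led by *Col3a1* (1318 and 1168 in GFP+ Pdgfrα- libraries) and *Dcn* (39.9 and 28.4). This list holds *Pdgfra*, which encodes the sort antigen, so part of that difference was set by the gate. Of the 6 chondrocyte genes, 0 were higher and 3 lower in GFP+ Pdgfrα- cells than GFP+ Pdgfrα+ cells, beside 13.1% of all genes lower. In GFP+ Pdgfrα- libraries *Col2a1* was at 12.02 and 48.2, *Acan* at 21.00 and 12.2 and *Sox9* at 33.1 and 31.3. Of the blood genes, 9 were in the table (*Pf4* was not). Their summed value was 84.4 and 55.95 in GFP+ Pdgfrα-, 23.1 and 34.6 in GFP+ Pdgfrα+ and 5342 and 8723 in GFP- Pdgfrα- libraries. *Ptprc*, which encodes CD45, was at 1.34 and 0.900 in GFP+ Pdgfrα- libraries.

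**Figure D3:**
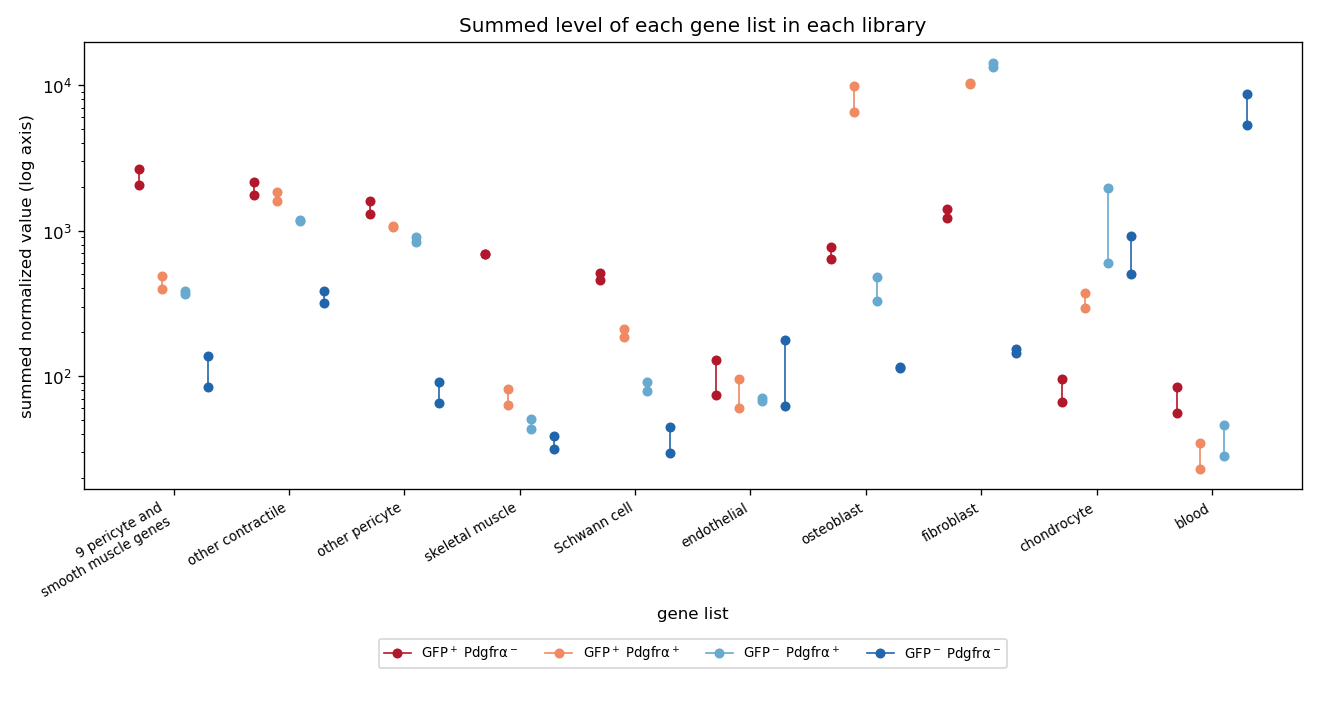
Summed normalized value (y axis, log axis) of each gene list (x axis) in the 4 sorted populations, with 2 libraries per population joined by a line. The 9 pericyte and smooth muscle genes reach 2041 and 2639 in GFP+ Pdgfrα- libraries and 484 and 397 in GFP+ Pdgfrα+ libraries, and the skeletal muscle and Schwann cell lists are also highest in GFP+ Pdgfrα- libraries.

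The genes most like each of the 9 were found by Pearson correlation of log2(value + 1) over the 8 libraries, among genes with a mean of at least 10. These values describe 8 libraries that fall into 4 populations of 2, so high correlations are common. A gene high in GFP+ Pdgfrα- libraries alone can pass this minimum through them. Its correlation then largely restates that difference, and nothing more is read from it. *Acta2* was closest to *Ttn* (r = 0.996), *Fgfr4* (r = 0.994) and *Pax7* (r = 0.991). *Ttn* encodes titin of striated muscle, *Fgfr4* a growth factor receptor of muscle progenitors, and their values in GFP+ Pdgfrα- libraries were 914 and 818 for *Ttn* and 308 and 329 for *Fgfr4*. In GFP- libraries *Fgfr4* was at 0.378 to 2.73 and *Pax7* at 0.378 to 1.53. Both passed the minimum mean through GFP+ Pdgfrα- libraries. *Mcam* was closest to *Myf5* (r = 0.997), *Cdh15* (r = 0.997) and *Myod1* (r = 0.996), which encode myogenic factors and M-cadherin. All 3 had at most 4.46 outside GFP+ Pdgfrα- libraries and at most 3 reads in GFP- libraries. They passed the minimum mean only through GFP+ Pdgfrα- libraries. The nearest to *Kcnj8* were *Rem1* (r = 0.991), *Parm1* (r = 0.990) and *Notch3* (r = 0.990), and to *Abcc9* *Notch3* (r = 0.994), *Parm1* (r = 0.994) and *Slc35f1* (r = 0.990). *Notch3* and *Parm1* were thus named for both channel subunits. *Rtn2* was likewise shared by *Tagln*, with *Rtn2* (r = 0.987), *Chka* (r = 0.979) and *Arhgef7* (r = 0.977), and *Cnn1*, with *Hs6st2* (r = 0.996), *Qk* (r = 0.992) and *Rtn2* (r = 0.989). *Myh11* was closest to *Bcam* (r = 0.998), *Pag1* (r = 0.987) and *Cux1* (r = 0.982), *Rgs5* to *Plekhb1* (r = 0.987), *Chrdl2* (r = 0.987) and *Nedd4l* (r = 0.986) and *Cspg4* to *Ctsf* (r = 0.996), *Parp8* (r = 0.996) and *Cdc42bpb* (r = 0.995). *Bcam*, *Chrdl2*, *Hs6st2*, *Rem1* and *Rtn2* likewise had no value of 10 or more outside GFP+ Pdgfrα- libraries. Among themselves the 8 genes without *Cspg4* correlated at 0.722 to 0.993 over their 28 pairs, with a median of 0.928, while *Cspg4* correlated with the other 8 at −0.03 to 0.61. With no minimum mean, 5 of the 9 kept all 3 of their nearest genes. Spearman correlation over 8 libraries left ties at the third place for 7 of the 9, so genes nearest by it are not named. Of the 2 genes without such ties, *Tagln* had 0 and *Myh11* 1 of its 3 in common with Pearson correlation.

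In the NCBIM37 build, with the annotation of the same build, the 2 channel genes *Kcnj8* (chr6:142513459-142519876, minus strand, 3 exons) and *Abcc9* (chr6:142536382-142650794, minus strand, 41 merged exons) are neighbours, 16505 bases apart with 0 annotated genes between them. Chromosome 9 holds *Tagln* (chr9:45737711-45744141, minus strand), *Mcam* (chr9:43942552-43950810, plus strand), *Cnn1* (chr9:21903725-21914074, plus strand) and *Cspg4* (chr9:56712911-56747677, plus strand). *Rgs5* (chr1:171585632-171625944, plus strand), *Myh11* (chr16:14194620-14291501, minus strand, 42 merged exons) and *Acta2* (chr19:34315580-34329826, minus strand, 9 exons) lie on other chromosomes. Exons of *Tagln* overlap *Pcsk7* and those of *Mcam* overlap *Gm10687*, each on the opposite strand. Whether counting used strand is not given in the sources used here, so reads in those overlaps cannot be assigned with certainty, and the values of *Tagln* and *Mcam* carry that uncertainty.

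The 250 bases before the transcription starts of the 9 genes and of the contractile list were searched for the CArG box, the site known for serum response factor. It was taken as CC, then 6 bases of A or T, then GG, a pattern that reads the same on both strands, with or without 1 other base among the 6. RefSeq promoters (GRCm38.p6) were matched for 7 of the 9 genes, not for *Tagln* and *Myh11*. No exact match lay before any of the 7, and *Acta2* alone had matches with 1 other base. Of all 32851 promoters, 1.47% held an exact match and 8.59% a match with at most 1 other base. Of the contractile list, 16 of 18 genes had a promoter, and only *Myl9*, the smooth muscle myosin light chain, had an exact match. Of the actins, 4 of 6 had a promoter, and *Acta1*, *Actc1* and *Actg1* had an exact match. The promoter of *Acta2* is shown as the only one of the 7 genes searched with a match, and those of *Actc1* and *Myl9* for comparison with it. All 3 were chosen after the search. Capitals mark the matches.
*Acta2*, chr19:34255374-34255623, minus strand: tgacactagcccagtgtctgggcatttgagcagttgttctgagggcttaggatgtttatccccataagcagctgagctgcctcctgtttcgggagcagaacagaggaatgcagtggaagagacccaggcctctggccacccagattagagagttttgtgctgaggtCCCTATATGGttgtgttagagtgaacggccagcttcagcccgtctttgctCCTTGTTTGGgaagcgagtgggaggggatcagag
*Actc1*, chr2:114052876-114053125, minus strand: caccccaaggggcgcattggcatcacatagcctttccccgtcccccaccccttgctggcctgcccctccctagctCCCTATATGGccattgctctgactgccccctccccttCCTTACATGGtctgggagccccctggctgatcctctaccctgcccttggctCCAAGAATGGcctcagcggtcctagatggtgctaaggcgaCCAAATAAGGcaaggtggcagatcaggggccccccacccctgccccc
*Myl9*, chr2:156775214-156775463, plus strand: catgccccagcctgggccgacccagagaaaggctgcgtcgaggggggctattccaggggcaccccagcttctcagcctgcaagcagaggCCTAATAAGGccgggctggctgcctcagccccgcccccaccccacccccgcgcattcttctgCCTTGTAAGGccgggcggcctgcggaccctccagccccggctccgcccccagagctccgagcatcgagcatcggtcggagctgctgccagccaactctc
The marked matches of *Acta2* lie 84 and 34 bases before its start. The first has the same letters as the *Actc1* match 175 bases before that gene's start. The exact match of *Actc1* lies 47 bases before its start, and that of *Myl9* 161 bases before. *Myl9* itself was at 63.2 and 100.2 in GFP+ Pdgfrα-, 43.8 and 36.1 in GFP+ Pdgfrα+, 21.1 and 18.6 in GFP- Pdgfrα+ and 1.29 and 5.54 in GFP- Pdgfrα- libraries. The letters TGGGAA, or TTCCCA on the other strand, the core known for the Notch effector RBPJ, were found before *Acta2*, where they overlap the second of its marked matches, and before *Abcc9*, and in 21.6% of all promoters. Matches are descriptions of sequence and do not show that a factor binds.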

How the data were processed

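Libraries were made by the authors from amplified cDNA. Per the submitters' processing notes and the study's methods, they used Picard, trimmed reads with cutadapt, quantified them with RSEM 1.17 on NCBIM37 and normalized with limma. Their deposited table gives, for every gene, a linear normalized signal. Whole reads were recovered from 100% of its values (tolerance 0.05 reads). Log2(value + 1) was fitted for 15880 genes in limma 3.58.1 under R 4.3.3 (lmFit, then eBayes with its trend option), each population having 1 coefficient, which leaves 4 residual degrees of freedom. Adjustment was by Benjamini–Hochberg across the whole table, with calls at an adjusted p of 0.05 or less. An exact permutation test of 2 against 2 libraries cannot go below 0.333. Fits were tested on simulated data, and no result of that test is used here. Alternatives were voom and edgeR 4.0.16 (quasi-likelihood) on recovered reads, a replicate block, only the compared populations, no trend, pseudocounts of 0.1 and 5, a filter (over 2 reads per 1e6 in at least 2 libraries, 14235 genes left), centring, no normalization factor, and leaving out libraries. The methods place each replicate in a shared pool of littermates, so replicate numbers were read as pairing. The main fit left this pairing out, and only the replicate block used it. Deviations of same-numbered libraries correlated at 0.0043 to 0.0812. P-values measure the spread between 2 pools. Named genes were the 9, the 6 most abundant of each related list, all paralogs, the 2 most abundant and the defining marker of each other cell type, and the 3 most correlated genes; not every gene that meets this rule is reported here. Members and lists were chosen with earlier results of these data known. Figures used Python 3.11.15, pandas 2.3.3, numpy 2.4.6 and matplotlib 3.10.9.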

Additional observations from a re-analysis of the deposited data

Results flagged for a closer look

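For all 9 genes the difference between GFP+ and GFP- cells was not the same in the Pdgfrα+ and Pdgfrα- compartments, by the interaction term of the limma fit. On the log2(value + 1) scale, the effect of GFP in Pdgfrα+ cells minus that in Pdgfrα- cells was −4.11 for *Rgs5*, −3.39 for *Kcnj8*, −3.35 for *Cspg4*, −3.17 for *Abcc9*, −3.06 for *Tagln*, −2.79 for *Mcam*, −2.61 for *Acta2* and −2.45 for *Myh11*. That of *Cnn1*, which had 1 and 2 reads in GFP- Pdgfrα- libraries, was negative but no size is given, since it ranged over −3.71 to −1.37 in the alternatives. Over all genes, 44.3% passed this test, and 25.2% were negative. Among markers of other cell types, 8 of 12 skeletal muscle, 7 of 10 Schwann cell and 4 of 6 fibroblast genes were also called as negative. So were 13 of 17 contractile, 16 of 20 pericyte and 13 of 16 regulator genes of the further lists. In contrast, 5 of 7 osteoblast and 5 of 9 blood genes were called as positive, beside 3032 of all 15880 genes. *Cspg4* was the only one of the 9 whose effect of GFP in Pdgfrα+ cells was negative. Its effect of GFP was 2.78 in Pdgfrα- cells, where GFP- cells held little of it, and −0.57 in Pdgfrα+ cells, where the adjusted p was 0.411. Without replicate 1 or 2 of GFP- Pdgfrα- cells the term of *Cspg4* was −2.69 and −4.01, and without replicate 1 or 2 of GFP+ Pdgfrα+ cells that of *Myh11* was −3.03 and −1.86. The *Myh11* term was not called by voom (adjusted p = 0.142) or edgeR (adjusted p = 0.0751), each of which called 8 of the 9. The term contains the GFP- Pdgfrα- libraries, and the part of their red blood cell transcripts in it was not tested.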

How the results depend on the processing

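Of 1251 values of the 9 genes under the alternatives, 1171 kept their direction and their side of the threshold, 26 lost a call, 13 gained one, 30 untested values moved by more than the spread and 11 changed sign, none of these from a call. Signs changed for *Tagln* for GFP+ Pdgfrα+ versus GFP- Pdgfrα+ cells without replicate 1 of GFP- Pdgfrα+ cells (−0.10) or of every population (−0.23; up to 0.80 without replicate 2), and for *Myh11* for GFP+ Pdgfrα+ versus GFP- Pdgfrα- cells on centring (−0.31) and without replicate 1 of GFP+ Pdgfrα+ cells (−0.42), of GFP- Pdgfrα- cells (−0.02) or of every population (−0.61, against 0.95 without replicate 2). They also changed for *Mcam* for GFP- Pdgfrα- versus GFP- Pdgfrα+ cells on centring (0.42), without replicate 1 of GFP- Pdgfrα+ cells (0.11), replicate 2 of GFP- Pdgfrα- cells (0.03) or replicate 1 of every population (0.05), with −0.17 without replicate 2 of GFP- Pdgfrα+ cells and −0.33 with no normalization factor, and for *Cspg4* for GFP+ Pdgfrα- versus GFP+ Pdgfrα+ cells without replicate 1 of every population (0.0089, against −0.97 without replicate 2). Leaving out replicate 1 or 2 of every population leaves no residual degrees of freedom, so those are values with no test. Where a single library was left out, the lone sample was assumed to vary like the other groups. With voom the 9 genes called for GFP- Pdgfrα- versus GFP- Pdgfrα+ cells were 3 in place of 5. Leaving out single libraries gave 1 to 5 of the 9 for GFP+ Pdgfrα+ versus GFP- Pdgfrα+ cells, and over all genes 246 to 1083 in place of 849 there, 2158 to 4056 in place of 3848 for GFP+ Pdgfrα- versus GFP+ Pdgfrα+ cells and 2757 to 4642 in place of 4427 for GFP+ Pdgfrα- versus GFP- Pdgfrα+ cells. With no trend in the fit, 532 genes were called for GFP+ Pdgfrα+ versus GFP- Pdgfrα+ cells. The cause of these changes was not tested. EdgeR on recovered reads called 3586 genes for GFP+ Pdgfrα- versus GFP+ Pdgfrα+ and 893 for GFP+ Pdgfrα+ versus GFP- Pdgfrα+ cells. Centring moved GFP- Pdgfrα- libraries up by 0.31 and 0.38 (log2). The share of called genes that were higher moved from 56.1% to 38.9% for GFP+ Pdgfrα- versus GFP- Pdgfrα- cells, from 55.5% to 39.6% for GFP+ Pdgfrα+ versus GFP- Pdgfrα- cells, from 44.9% to 59.4% for GFP- Pdgfrα- versus GFP- Pdgfrα+ cells and from 43.1% to 59.7% for the interaction. Without the normalization factor it was 71.7% for GFP+ Pdgfrα- versus GFP- Pdgfrα- cells, 56.4% for GFP+ Pdgfrα- versus GFP+ Pdgfrα+ cells (from 45.9%), 57.6% for GFP+ Pdgfrα- versus GFP- Pdgfrα+ cells (from 48.6%) and 28.6% for the interaction. The replicate block changed the 2 calls of *Rgs5* given in the report (log2 fold changes 0.75 and −0.50, the latter −0.06 and −0.93 without replicate 1 or 2 of GFP- Pdgfrα- cells) and no other call of the 9, which numbered 4 for GFP+ Pdgfrα+ versus GFP- Pdgfrα+ and 6 for GFP- Pdgfrα- versus GFP- Pdgfrα+ cells under the block. Each of the 9 has 1 identifier, so summing identifiers gave no other value. Depth limits *Cnn1* and *Tagln*, whose reads outside GFP+ Pdgfrα- cells were at most 22, *Myh11*, with 5 and 7 reads in GFP- Pdgfrα+ libraries, and *Kcnj8*, with 3 and 13 in GFP- Pdgfrα- libraries.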
